A study of Mus musculus with 6 samples.

Results

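Laminin chains are the protein subunits of the laminins, and 9 genes that encode them (Lama1, Lama2, Lama3, Lama4, Lama5, Lamb1, Lamb2, Lamb3 and Lamc1) were taken by gene symbol from the 55401 genes counted in bulk RNA-Seq data of NIH3T3 cells. Of these 9 genes, 8 passed the filter on low counts and were tested, whereas Lama1 had 0 counts in every library. Lamc3, a further γ chain, is given beside them. NIH3T3 is a fibroblast line, immortalized, that was derived from mouse embryos. The EV group (2 libraries) held cells with an empty vector treated with DMSO vehicle, the TC group (1 library) held cells expressing the TAZ-CAMTA1 fusion treated with DMSO, and the TC + ATA group (3 libraries) held TAZ-CAMTA1 cells treated with aurintricarboxylic acid at 10 μM. Treatment lasted 48 h in all groups. TAZ-CAMTA1 joins the transcriptional coactivator TAZ to CAMTA1 and binds the TEAD transcription factors, and ATA was studied as a disruptor of that binding. The promoter that drives the fusion, the number of clones and whether libraries came from separate cultures are not given in the sources used here, so that p-values measure the spread between these libraries, which may be technical. No EV cells treated with ATA were among the libraries, and TC has no replicate.

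A laminin is a trimer of 1 α, 1 β and 1 γ chain that assembles in the endoplasmic reticulum and is secreted into the basement membrane, the thin sheet of matrix under epithelia and endothelia and around muscle, fat and nerve cells. The α chain carries the large globular domains that bind integrins and dystroglycan at the cell surface, so that the choice of α chain sets which receptors a laminin engages. The chains differ in where they are found. Lama2 is the α chain of muscle and peripheral nerve, and its loss causes a congenital muscular dystrophy. Lama4 is typical of vessels and mesenchymal cells, Lama5 is the broadly expressed chain of adult epithelial and vascular basement membranes, Lama1 is mainly embryonic, and Lama3 forms the epithelial anchoring laminin together with Lamb3.

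The libraries held 58471484 to 74413193 counts. All 8 fibroblast markers examined (Col1a1, Col1a2, Col3a1, Pdgfra, Pdgfrb, Thy1, Vim and Fn1) were at 1 CPM (read counts relative to the TMM-adjusted library size) or more in every library, with a summed level of 14697 to 19379 CPM. Single markers moved in both directions, with 2 higher and 3 lower in TC versus EV, and 4 and 2 in TC + ATA versus EV. These are 62.5% and 75% of the 8 markers, against 28% and 36.6% of all genes tested. Pdgfra, Thy1 and Fn1 were lower in TC than in EV (log2 fold changes of −1.20, −1.47 and −0.83, with adjusted p = 1.31e-05, 1.03e-05 and 0.00259), and Col1a1 and Vim were higher (0.53 and 0.64, with adjusted p = 0.0103 and 0.00658). Their part in the results below was not tested. Summed levels of 7 endothelial markers (2.01 to 2.85 CPM in EV, 3.55 to 4.38 CPM in TC-expressing libraries), 8 epithelial markers (1.52 to 2.59 CPM and 3.24 to 4.73 CPM) and 5 Schwann cell markers (2.68 to 4.53 CPM and 3.10 to 5.61 CPM) were low. The endothelial and epithelial sums were higher in all TC-expressing libraries than in EV, as were 25.4% of single genes. In TC versus EV, 1 of 7 endothelial and 1 of 4 epithelial markers tested were called (14.3% and 25%, against 28% of all genes). In TC + ATA versus EV these were 14.3% and 0%, against 36.6%. Krt14 alone made up most of the epithelial sum. These sums are not read as a result about the fusion, and their part was not tested either. Epcam, Krt5, Krt18 and Cldn7 did not pass the filter on low counts, nor did Sox10. The 7 skeletal muscle markers summed to 271 to 383 CPM in EV and 353 to 545 CPM in TC-expressing libraries. Acta1, Ckm and Des made up most of that, while Myod1, Myog, Myf5 and Pax7 were at 0.0528 to 1.18 CPM over all libraries. The 6 blood cell markers summed to 5.58 to 10.6 CPM over all libraries. Wwtr1, the mouse gene of TAZ, was at 110 and 104 CPM in EV, 139 CPM in TC, and 131, 129 and 131 CPM in TC + ATA, and whether reads of the fusion transcript are counted there was not tested.

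The sequences at annotated starts of Lama5, Lama2 and Lamb1 are shown first, because Lama5 and Lama2 moved in opposite directions and Lamb1 is an abundant β chain that rose. They were chosen among the chains with a sequence window. RefSeq windows of 250 bases before to 50 bases after an annotated start (GRCm38.p6) were at hand for 5 of the 9 chains (Lama2, Lama5, Lamb1, Lamb2 and Lamb3, the last with 2 windows). Below are the bases before the start, ending where an annotated exon begins, written 5′ to 3′ on the strand of the gene. Capitals mark the GC box GGGCGG or its reverse complement CCGCCC. The Lama5 stretch is chr2:180225860-180226109 on the minus strand, that of Lama2 is chr10:27616943-27617192 on the minus strand, and that of Lamb1 is chr12:31265043-31265233 on the plus strand. The stretches of Lama5 and Lamb1 end at the outermost annotated start of the gene. That of Lama2 ends at an internal start, since the annotated gene reaches to base 27619758, and so lies inside the gene.
Lama5: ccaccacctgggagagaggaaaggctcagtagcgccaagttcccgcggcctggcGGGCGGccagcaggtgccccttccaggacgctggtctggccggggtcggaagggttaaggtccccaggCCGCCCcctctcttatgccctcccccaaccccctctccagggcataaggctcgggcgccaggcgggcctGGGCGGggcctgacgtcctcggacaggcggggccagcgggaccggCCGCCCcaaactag
Lama2: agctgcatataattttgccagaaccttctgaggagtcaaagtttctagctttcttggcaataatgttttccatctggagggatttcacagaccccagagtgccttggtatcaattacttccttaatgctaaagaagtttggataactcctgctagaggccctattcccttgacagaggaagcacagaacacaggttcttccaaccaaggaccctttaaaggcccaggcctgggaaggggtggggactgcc
Lamb1: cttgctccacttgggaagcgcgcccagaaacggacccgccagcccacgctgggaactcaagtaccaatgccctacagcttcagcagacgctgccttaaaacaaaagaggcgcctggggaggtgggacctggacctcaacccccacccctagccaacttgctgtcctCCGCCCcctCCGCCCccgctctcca

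These stretches differed in composition. The 250 bases before Lama5 were 72.4% G or C, with 19 CpG dinucleotides and 4 GC boxes. The 250 bases before the internal start of Lama2 were 47.2% G or C, with 0 CpG dinucleotides and 0 GC boxes, and the 191 bases before Lamb1 were 63.9% G or C, with 10 CpG dinucleotides and 2 GC boxes. The whole windows of 300 bases, which reach past the start, held 4 GC boxes for Lama5, 1 for Lama2 and 2 for Lamb1, and 35.7% of all 32841 RefSeq mouse windows of 300 bases held at least 1. The TEAD motif CATTCC, searched with its reverse complement GGAATG, occurred in 1 of the 6 laminin windows, in the second start of Lamb3, and in 14.7% of all windows. The AP-1 motif TGANTCA occurred in 0 of the 6 laminin windows and in 7.81% of all windows. A match is a run of letters and not a measured binding site, and these windows do not reach distal enhancers.

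The laminin mRNA of EV cells was mainly that of the β1, β2 and γ1 chains. On the scale of CPM per kilobase of exon, Lamc1 was at 31.0 and 26.02 in the EV libraries, Lamb1 at 20.3 and 18.2, and Lamb2 at 14.5 and 19.0. Lamb1 and Lamb2 overlapped in EV on this scale. Per kilobase of the longest annotated transcript they did not, with Lamb1 at 34.8 and 31.1 and Lamb2 at 15.6 and 20.5. Lamb1 was then above Lamc1 (33.7 and 28.2) in each EV library, so that the order of these chains in EV depended on the length used. All α chains were far lower, with Lama2 at 0.903 and 0.789 CPM per kilobase, Lama4 at 0.566 and 0.631, and Lama5 at 0.243 and 0.225. Lamb3 (0.0445 and 0.0337) and Lama3 (0.00747 and 0.0122) were at the lower end. In TC the order was Lamc1 (69.0 CPM per kilobase), Lamb1 (38.5), Lamb2 (18.4), Lama5 (1.19), Lama4 (0.226), Lamb3 (0.214), Lama2 (0.137) and Lama3 (0.0147). The order of the α chains was thus Lama2, Lama4, Lama5 in EV and Lama5, Lama4, Lama2 in TC. In the 3 TC + ATA libraries Lama5 was at 1.23 to 1.34 CPM per kilobase, Lama4 at 0.249 to 0.321 and Lama2 at 0.178 to 0.196, without overlap between these 3 genes, while Lamb3 (0.189 to 0.286) overlapped with Lama4 and Lama2.

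**Figure D1:**
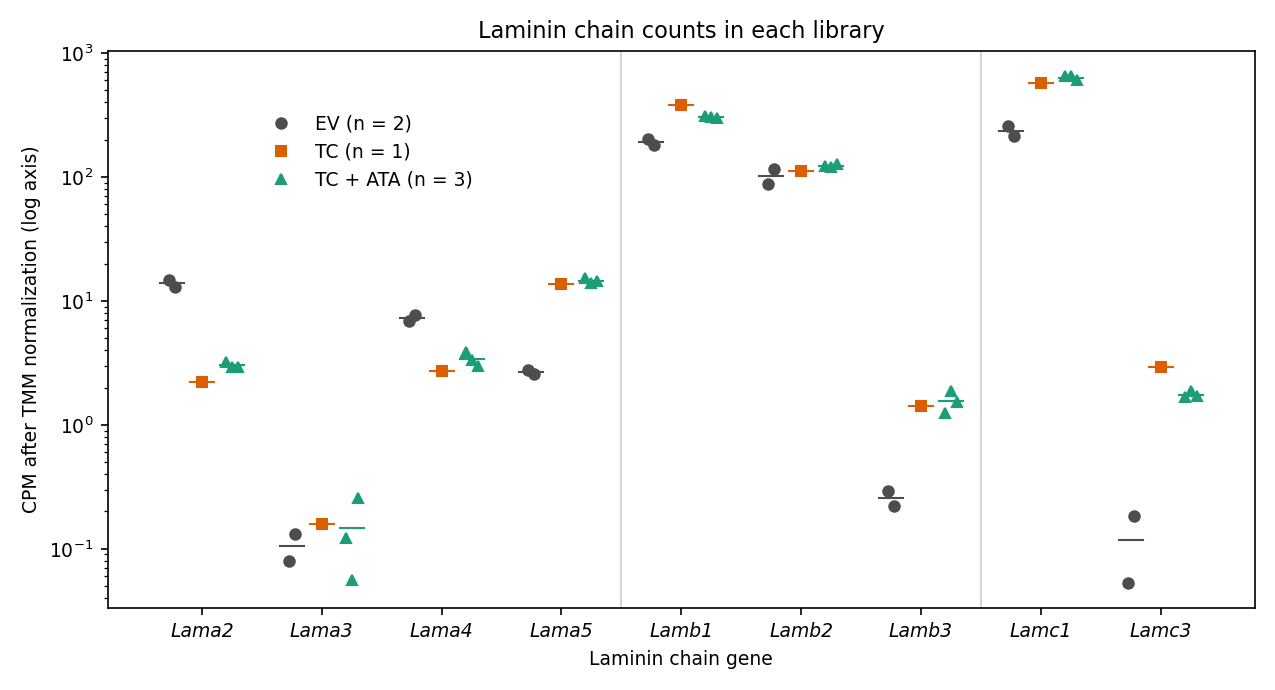
Each point is 1 library, as CPM after TMM normalization on a log axis, with a line at the group mean, for 9 laminin chain genes (Lama1 had 0 counts and is not drawn). TC-expressing libraries lie below both EV libraries for Lama2 and Lama4 and above both for Lama5, Lamb1, Lamb3, Lamc1 and Lamc3.

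TC versus EV asked which chains change with the fusion. Of the 8 chains tested, 4 were higher in TC (Lama5, Lamb1, Lamb3 and Lamc1) and 2 were lower (Lama2 and Lama4) at the limit of 0.05 on the adjusted p-value (edgeR's quasi-likelihood test, Benjamini-Hochberg adjustment over 18539 genes). Among all genes tested, 14.8% were higher and 13.2% were lower by the same limit. With an absolute log2 fold change of at least 2 as well, 3 chains remained (Lama2, Lama5 and Lamb3), against 3.64% of all genes. The median log2 fold change was 0.79 over the 8 chains and −0.03 over all genes. All 4 TC-expressing libraries lay above both EV libraries for Lama5, Lamb1, Lamb3 and Lamc1, as for 25.4% of genes, and below both for Lama2 and Lama4, as for 27.0% of genes. Since these are bulk libraries, fewer cells making a chain and less mRNA of it per cell cannot be told apart.

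The α chains exchanged places. Lama5 was at 2.77 and 2.56 CPM in EV, 13.6 CPM in TC, and 15.3, 14.0 and 14.4 CPM in TC + ATA. Both EV libraries were low and every TC-expressing library was high. The rise was 5.11-fold in TC versus EV (log2 fold change 2.35 ± 0.13 SE, adjusted p = 2.73e-06) and 5.46-fold in TC + ATA versus EV (2.45 ± 0.11, adjusted p = 4.38e-07). These are counts of 195 and 207 in EV and 868 to 998 in the other libraries.

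Lama2 moved the other way. It was at 14.8 and 12.9 CPM in EV, 2.23 CPM in TC, and 3.20, 2.91 and 2.95 CPM in TC + ATA, so that EV was high and did not overlap with the rest. It was 6.19-fold lower in TC than in EV (log2 fold change −2.63 ± 0.18 SE, adjusted p = 1.08e-05) and 4.58-fold lower in TC + ATA against EV (−2.20 ± 0.12, adjusted p = 1.41e-06). Of the exon bases of Lama2, 631 overlap a gene on the other strand (Gm48084), and the use of strand in counting is not stated, so that reads of the pair cannot be told apart.

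Lama4, the α chain of mesenchymal and vascular laminins, was at 6.83 and 7.62 CPM in EV, 2.72 CPM in TC, and 3.87, 3.33 and 3.01 CPM in TC + ATA. The EV libraries were again the high ones. It fell 2.65-fold in TC versus EV (log2 fold change −1.41 ± 0.21 SE, adjusted p = 0.00114) and 2.13-fold in TC + ATA versus EV (−1.09 ± 0.14, adjusted p = 0.000397).

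The epithelial and embryonic α chains were at or near 0. Lama3 had 6 and 10 counts in EV, 11 in TC, and 7, 4 and 18 in TC + ATA. The TC + ATA libraries overlapped with both other groups, and the TC library was above EV by few counts. For TC versus EV its log2 fold change was estimated at 0.58, with a 95% interval from −1.75 to 2.90, so that a difference of up to several fold was not detectable at this depth. Lama1 had 0 counts in all 6 libraries, which allows a share of up to 4.03e-06 to 5.13e-06% of a library (3 counts, for counting error only).

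As a result the α chain mRNA had a different make-up with and without the fusion. As a share of the summed α chain level per kilobase of exon, Lama2 was 50.1% ± 3.47 (SD, n = 2) in EV, 8.70% in TC and 10.5% ± 0.0256 (SD, n = 3) in TC + ATA. Lama5 was 13.8% ± 0.409 in EV, 76.0% in TC and 72.7% ± 0.902 in TC + ATA, and Lama4 was 35.5% ± 3.67, 14.4% and 16.0% ± 1.34. Lama5 stayed the leading α chain of the TC-expressing libraries under every length used: with the length of the longest annotated transcript its share was 8.12%, 63.1% and 59.0% in EV, TC and TC + ATA, and by CPM without length 11.2%, 72.7% and 68.9%. Shares of 1 whole are not independent of each other, and no test was made on them.

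**Figure D2:**
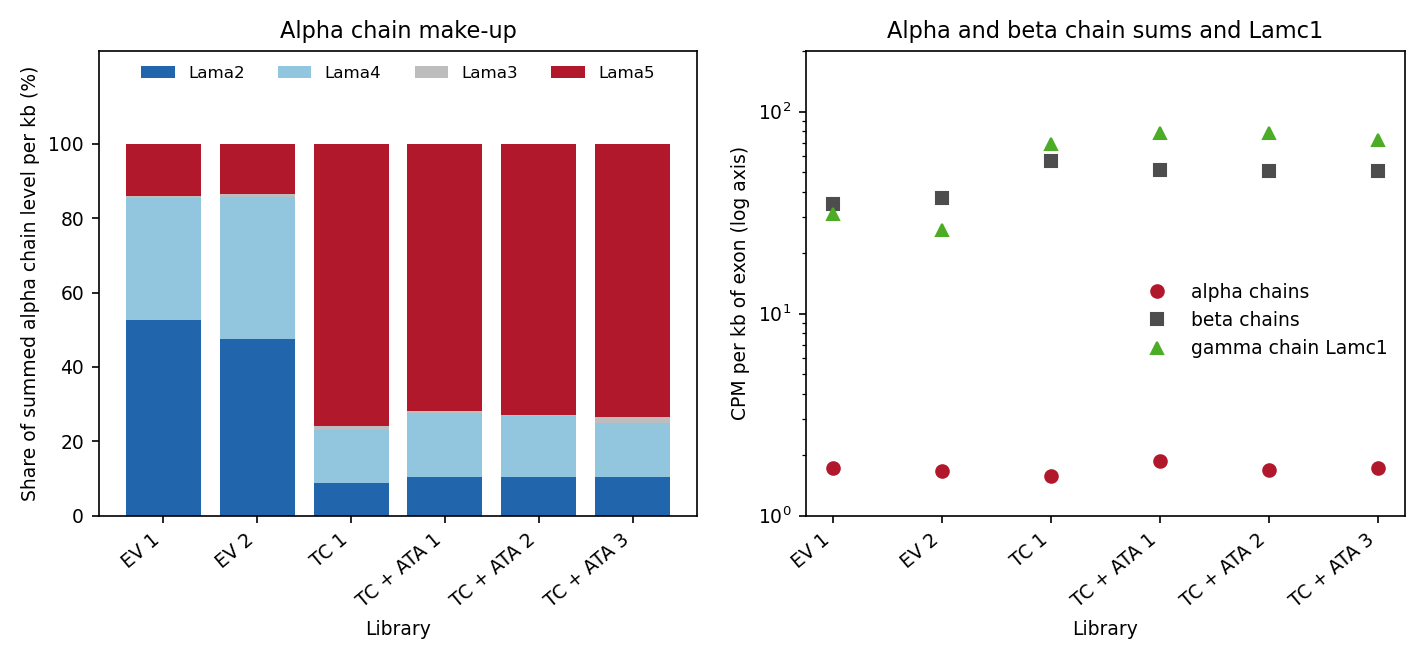
Left, stacked bars give the share (%) of each α chain in the summed α chain level per kilobase of exon in each library. Right, points give the summed level of the α and of the β chains and the level of the γ chain Lamc1, in CPM per kilobase on a log axis. Lama5 holds 76.0% of the α chain level in TC against a mean of 13.8% in EV, and at this length Lamc1 lies above the β chain sum in all 4 TC-expressing libraries and below it in both EV libraries (per kilobase of the longest transcript it lies below the sum in TC as well).

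The β and γ chains are shared by many laminins, and Lamc1 and Lamb1 rose while Lamb2 was not called. Lamc1, the γ chain of most laminins, was at 257 and 215 CPM in EV, 571 CPM in TC, and 650, 648 and 599 CPM in TC + ATA. Every TC-expressing library was above both EV libraries. It was 2.42-fold higher in TC than in EV (log2 fold change 1.27 ± 0.11 SE, adjusted p = 5.06e-05) and 2.68-fold higher in TC + ATA by the same measure (1.42 ± 0.09, adjusted p = 4.71e-06).

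Lamb1, the β chain that pairs with γ1 in most embryonic and vascular laminins, was at 201 and 180 CPM in EV, 382 CPM in TC, and 309, 305 and 296 CPM in TC + ATA. The TC library was the highest and the TC + ATA libraries lay between it and EV. TC versus EV gave a log2 fold change of 1.00 ± 0.09 SE (2.00-fold, adjusted p = 5.40e-05) and TC + ATA versus EV gave 0.67 ± 0.07 (1.59-fold, adjusted p = 9.88e-05).

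Lamb2, the β chain of the neuromuscular junction and the kidney filter, was the abundant chain that was not called. It was at 87.9 and 115 CPM in EV, 112 CPM in TC, and 122, 119 and 126 CPM in TC + ATA, and the TC library lay between the EV libraries. TC versus EV gave a log2 fold change of 0.14 (95% interval −0.17 to 0.45, adjusted p = 0.506) and 0.27 in TC + ATA versus EV (0.03 to 0.51, adjusted p = 0.0732). The outcome turned on the EV library left out: the difference in TC versus EV was −0.06 without EV replicate 1 and 0.35 (adjusted p = 0.000593) without EV replicate 2, and in TC + ATA versus EV it was called without EV replicate 2 (0.49, adjusted p = 1.002e-05), with no filter on low counts (adjusted p = 0.0185) and by DESeq2 (adjusted p = 0.0259).

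Lamb3, the β chain of epithelial anchoring laminin, was low and rose. It had 22 and 17 counts in EV, 98 in TC, and 71, 134 and 107 in TC + ATA. These are 0.294 and 0.223 CPM in EV, 1.41 CPM in TC, and 1.25, 1.89 and 1.54 CPM in TC + ATA, with no overlap between EV and the rest. TC versus EV gave a log2 fold change of 2.44 ± 0.39 SE (adjusted p = 0.00166) and 2.59 ± 0.33 in TC + ATA versus EV (adjusted p = 0.000298). Lama3, its α chain partner in that laminin, was not called. Lamc3, the further γ chain, had 4 and 14 counts in EV, 204 in TC, and 95, 133 and 118 in TC + ATA. Its fitted log2 fold change of 4.61 ± 0.46 in TC versus EV (adjusted p = 9.88e-05) rests on 4 to 14 counts in EV and ran from 3.98 to 5.73 over the alternatives. Reads of the opposite-strand gene Gm13441 cannot be told apart from those of Lamc3 over 382 exon bases.

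The classes did not move in step. The γ chain Lamc1 was at 31.0 and 26.02 CPM per kilobase in EV, 69.0 in TC, and 78.6, 78.4 and 72.4 in TC + ATA. The β chain sum was 34.8 and 37.2 CPM per kilobase in EV, 57.1 in TC, and 51.4, 50.7 and 50.9 in TC + ATA. The sum of the α chains was 1.72 and 1.66 CPM per kilobase in EV, 1.57 in TC, and 1.87, 1.69 and 1.71 in TC + ATA. EV and TC + ATA overlapped, and the single TC library was the lowest.
The α chain sum depended on the length used, however: per kilobase of the longest transcript it was 2.92 and 2.84 in EV, 1.89 in TC, and 2.33, 2.09 and 2.09 in TC + ATA, without overlap between EV and the rest. As a percentage of Lamc1, the α chain sum was 5.54% and 6.37% in EV and 2.16% to 2.38% in the 4 TC-expressing libraries per kilobase of exon, and 8.66% and 10.05% against 2.46% to 2.73% per kilobase of the longest transcript. The ratio of the β chain sum to Lamc1 was 1.12 and 1.43 in EV, 0.827 in TC, and 0.654, 0.647 and 0.702 in TC + ATA per kilobase of exon. Per kilobase of the longest transcript it was 1.499 and 1.83 in EV, 1.15 in TC, and 0.883, 0.875 and 0.941 in TC + ATA, so that TC lay above 1 on this scale, and TC-expressing libraries were below EV on both. Within the β chains, Lamb1 was 53.6% ± 6.71 (SD, n = 2) of the level per kilobase of exon in EV, 67.4% in TC and 60.0% ± 1.15 (SD, n = 3) in TC + ATA. This share depended on the length as well. Per kilobase of the longest transcript it was 64.6%, 76.6% and 70.4% in EV, TC and TC + ATA, and by CPM without length 65.2%, 77.1% and 71.0%.

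The comparison of TC + ATA with TC asked whether the compound changes the chains in cells with the fusion. None of the 8 chains tested was called in either direction, and among all genes 0.426% were higher and 0.156% were lower. At shares this small, the lack of calls among 8 genes is not read as a result about the chains. The unadjusted p-value was under 0.05 for 2 of the 8 chains. The share of all genes at that limit was not computed, so that this count is not read as a result about the chains. DESeq2 called 1 chain (Lamb1, lower), against 236 genes higher and 84 lower among 14350 with an adjusted p-value. Values of TC + ATA lay above the single TC library for 5 chains (Lama2, Lama4, Lama5, Lamb2 and Lamc1), as for 30.5% of all genes, and below it for 1 (Lamb1), as for 32.7%.

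Lamb1 was the chain with the smallest unadjusted p-value. The 3 TC + ATA libraries (309, 305 and 296 CPM) were all below TC (382 CPM), with a log2 fold change of −0.33 ± 0.09 SE (adjusted p = 0.186, edgeR). The adjusted p was 0.0487 in DESeq2, 0.000329 in the fit of TC and TC + ATA alone, and 0.000307 and 0.000410 without EV replicate 1 or 2. In the last 3 of these fits EV adds nothing to the spread between replicates. Lama2 had the next smallest, with a log2 fold change of 0.43 ± 0.17 (adjusted p = 0.441), which compares 2.23 CPM in TC and 2.91 to 3.20 CPM in TC + ATA with 12.9 and 14.8 CPM in EV.

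The other chains had the following differences and 95% intervals on the log2 scale. Lama5 differed by 0.10 (−0.17 to 0.36), Lamc1 by 0.15 (−0.11 to 0.40), Lamb2 by 0.13 (−0.17 to 0.43) and Lama4 by 0.32 (−0.13 to 0.76). Lamc1 was called in the fit of the 2 groups alone (adjusted p = 0.0448) and without EV replicate 2 (adjusted p = 0.0469). The intervals of Lamb3 (−0.65 to 0.94) and Lama3 (−2.29 to 2.06) were wide because of low counts. An adjusted p over the limit does not show that ATA left a chain as it was, and the single TC library is shared with TC versus EV, where it has the opposite role.

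**Figure D3:**
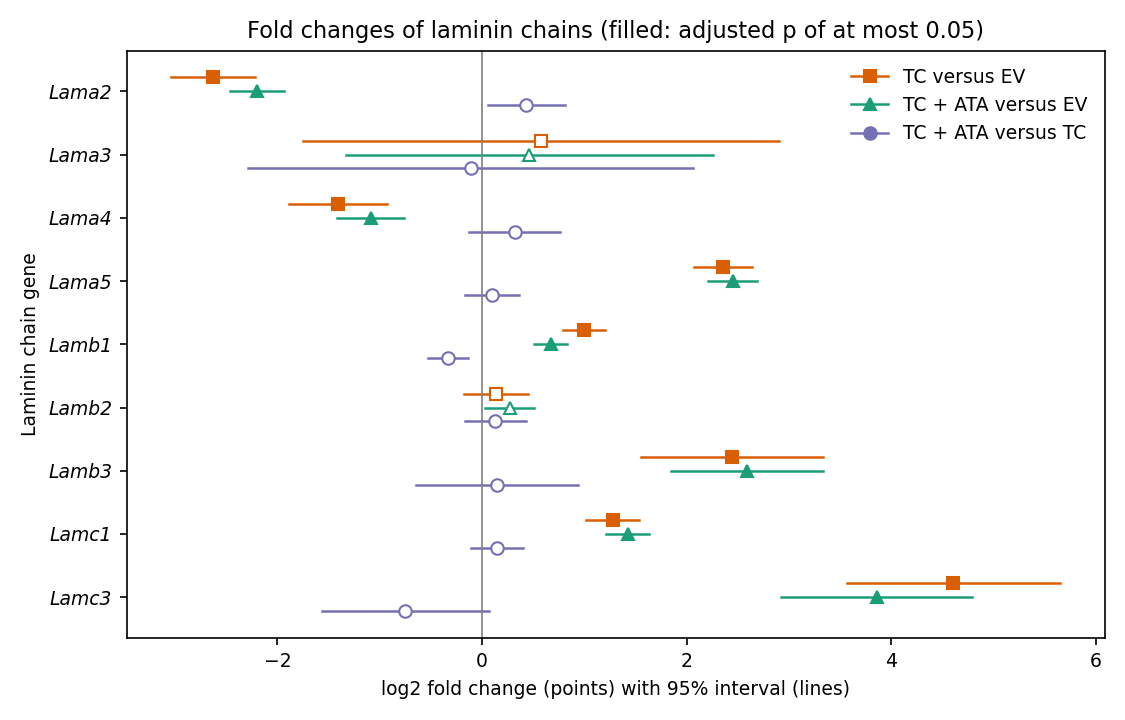
Points give the log2 fold change of each laminin chain in 3 comparisons and lines its 95% interval from edgeR, with filled points at an adjusted p of at most 0.05. In TC + ATA versus TC no point is filled, and the estimates run from −0.75 for Lamc3 to 0.43 for Lama2.

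TC + ATA versus EV has replicates on both sides, but its groups differ in the fusion and in ATA. Without EV cells treated with ATA, these effects cannot be told apart in this comparison. Of the 8 chains, 4 were higher (Lama5, Lamb1, Lamb3 and Lamc1) and 2 were lower (Lama2 and Lama4), against 18.0% and 18.6% of all genes, and 3 passed the fold change limit as well, against 3.87% of all genes. The median log2 fold change was 0.57 over the 8 chains and −0.01 over all genes. The EV libraries are shared with TC versus EV, so that the values of both comparisons are given side by side and do not support each other.

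Laminins act through receptors, and the receptor list was mostly higher in TC-expressing cells. Of 13 laminin receptor genes, 9 were higher and 1 was lower in TC versus EV, with a median log2 fold change of 1.04, against 14.8% higher and 13.2% lower among all genes. In TC + ATA versus EV 9 were higher and 1 was lower, with a median of 0.98, against 18.0% and 18.6% of all genes. Itga3, the integrin chain that binds laminins with α3 and α5 chains, was at 98.7 and 88.6 CPM in EV, 790 CPM in TC, and 748, 711 and 698 CPM in TC + ATA (log2 fold change 3.08 ± 0.10 SE in TC versus EV, adjusted p = 2.66e-07). Its groups did not overlap. Itga7, the laminin integrin chain of muscle, was at 6.06 and 5.59 CPM in EV, 32.5 CPM in TC, and 27.6, 29.4 and 26.03 CPM in TC + ATA (2.48 ± 0.11, adjusted p = 1.09e-06). Itga1, a collagen and laminin integrin chain, was at 0.642 and 0.525 CPM in EV, 2.65 CPM in TC, and 4.14, 5.68 and 4.24 CPM in TC + ATA (2.18 ± 0.28, adjusted p = 0.000450). Sdc1, a heparan sulfate proteoglycan, was the receptor that fell (−0.31 ± 0.10, adjusted p = 0.0402).

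Partners of laminin in the basement membrane were higher more often than lower. Of 24 such genes, 21 were tested, 11 were higher and 3 were lower in TC versus EV (median log2 fold change 0.81), and 12 and 4 in TC + ATA versus EV (median 1.17). These are 66.7% and 76.2% of the genes tested, against 28.0% and 36.6% of all genes. Some of the higher genes in TC versus EV rest on few counts, such as Col4a4 (3 and 6 in EV, 29 in TC) and Egflam (19 and 11 in EV, 47 in TC). Nid1, the nidogen that links the γ1 chain to collagen IV, was at 453 and 375 CPM in EV, 2047 CPM in TC, and 1810, 1818 and 1723 CPM in TC + ATA (log2 fold change 2.31 ± 0.12 SE in TC versus EV, adjusted p = 2.25e-06). Nid2, the other nidogen, was at 35.3 and 32.6 CPM in EV, 15.6 CPM in TC, and 22.7, 21.9 and 20.9 CPM in TC + ATA (−1.12 ± 0.11, adjusted p = 7.41e-05). The nidogens thus differed in direction. Tinagl1, a matricellular protein of basement membranes, rose by 1.63 ± 0.09 (adjusted p = 2.95e-06) and Col4a1, a chain of network-forming collagen, by 1.23 ± 0.09 (adjusted p = 1.89e-05). In TC + ATA versus EV the collagen IV chain Col4a5 was among the 3 largest increases of genes with a mean of at least 1 CPM (1.35 ± 0.07, adjusted p = 1.06e-06). Smoc1, a matricellular protein, and Hmcn1, hemicentin, were lower in TC, with log2 fold changes of −2.92 ± 0.40 (adjusted p = 0.000681) and −2.16 ± 0.28 (adjusted p = 0.000497).

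Dystroglycan is the receptor that binds laminin through sugar chains, and it belongs to a complex of proteins at the cell membrane. Of 11 genes of the dystrophin glycoprotein complex, 4 were higher and 2 were lower in TC versus EV (median 0.28), and 7 and 3 in TC + ATA versus EV (median 0.49). Calls thus covered 54.5% and 90.9% of the list, against 28.0% and 36.6% of all genes. Sgcd, a sarcoglycan, rose by 1.35 ± 0.12 SE on the log2 scale in TC versus EV (adjusted p = 5.15e-05) and Dtna, a dystrobrevin, by 1.07 ± 0.10 (adjusted p = 6.63e-05), and Sntb2, a syntrophin, by 0.65 ± 0.09 (adjusted p = 0.000528). Sspn, sarcospan, was lower (−0.84 ± 0.12, adjusted p = 0.00110), as was the sarcoglycan Sgcb (−0.41 ± 0.08, adjusted p = 0.00586). Sgca, another sarcoglycan, was among the 3 largest increases of genes with a mean of at least 1 CPM in TC + ATA versus EV (0.70 ± 0.21, adjusted p = 0.0280).
Of 10 genes that glycosylate dystroglycan, 9 were tested, 1 was higher and 1 was lower in TC versus EV (median 0.01), and 2 and 1 in TC + ATA versus EV (median −0.02). The share called was 22.2% and 33.3%, below that of all genes (28.0% and 36.6%), and is not read as a result about this list. Rxylt1, a xylosyltransferase of the sugar chain that laminin binds, was at 57.8 and 54.8 CPM in EV, 69.1 CPM in TC, and 75.4, 71.1 and 71.03 CPM in TC + ATA (0.30 ± 0.08 in TC versus EV, adjusted p = 0.0271). The kinase gene Pomk was lower (−0.48 ± 0.11, adjusted p = 0.0139), and Pomt2, a mannosyltransferase, was called in TC + ATA versus EV (0.23 ± 0.07, adjusted p = 0.0355).

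Among secreted regulators of laminin, 4 of 6 netrin genes were tested. Ntn4, which binds the short arms of laminin chains and limits their polymerization, rose by 1.56 ± 0.13 SE on the log2 scale in TC versus EV (adjusted p = 3.58e-05), from 3.72 and 3.69 CPM to 10.9 CPM, with 10.4, 10.9 and 9.81 CPM in TC + ATA. Ntn1 and Ntn3, guidance cues, were lower (−1.47 ± 0.25, adjusted p = 0.00256, and −0.64 ± 0.20, adjusted p = 0.0468), and 1 was higher and 2 were lower in TC + ATA versus EV. Calls covered 75% of the 4 netrins tested in each comparison, against 28.0% and 36.6% of all genes. Of 10 proteases that act on laminins or other matrix proteins, 9 were tested, 3 were higher and 3 were lower in TC versus EV, and 4 and 4 in TC + ATA versus EV, which is 66.7% and 88.9% against 28.0% and 36.6% of all genes. The 4 higher genes include Mmp3, with 0 counts in both EV libraries and 4, 16 and 2 in TC + ATA. Bmp1, a procollagen proteinase that also trims laminin chains, rose by 0.87 ± 0.14 (adjusted p = 0.00182). The membrane-bound matrix metalloproteinase gene Mmp14 rose by 0.39 ± 0.09 (adjusted p = 0.00977) and the urokinase gene Plau by 0.37 ± 0.11 (adjusted p = 0.0287). Mmp9, a gelatinase, was at 4.96 and 5.01 CPM in EV, 0.749 CPM in TC, and 0.598, 0.719 and 0.604 CPM in TC + ATA (−2.73 ± 0.28 in TC versus EV, adjusted p = 0.000121). Plat, tissue plasminogen activator, and Adamts2, a procollagen peptidase, were lower by log2 fold changes of −1.39 ± 0.10 and −1.38 ± 0.09 (adjusted p = 1.11e-05 and 1.05e-05).

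Over the 74 partner genes together, 67 were tested. In TC versus EV 29 were higher and 12 were lower, with a median log2 fold change of 0.29, and in TC + ATA versus EV 35 were higher and 15 were lower, with a median of 0.49. These are 61.2% and 74.6% of the 67, against 28.0% and 36.6% of all genes. The TC + ATA versus TC comparison called 0 of the 67 by edgeR, against 0.583% of all genes. At a share this small, the lack of calls by edgeR is not read as a result about the partner genes. The unadjusted p-value was under 0.05 for 13 of the 67. The share of all genes at that limit was not computed, so that this count is not read as a result either. DESeq2 called 5 partner genes higher and 0 lower, against 236 genes higher and 84 lower among 14350 with an adjusted p-value.

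**Figure D4:**
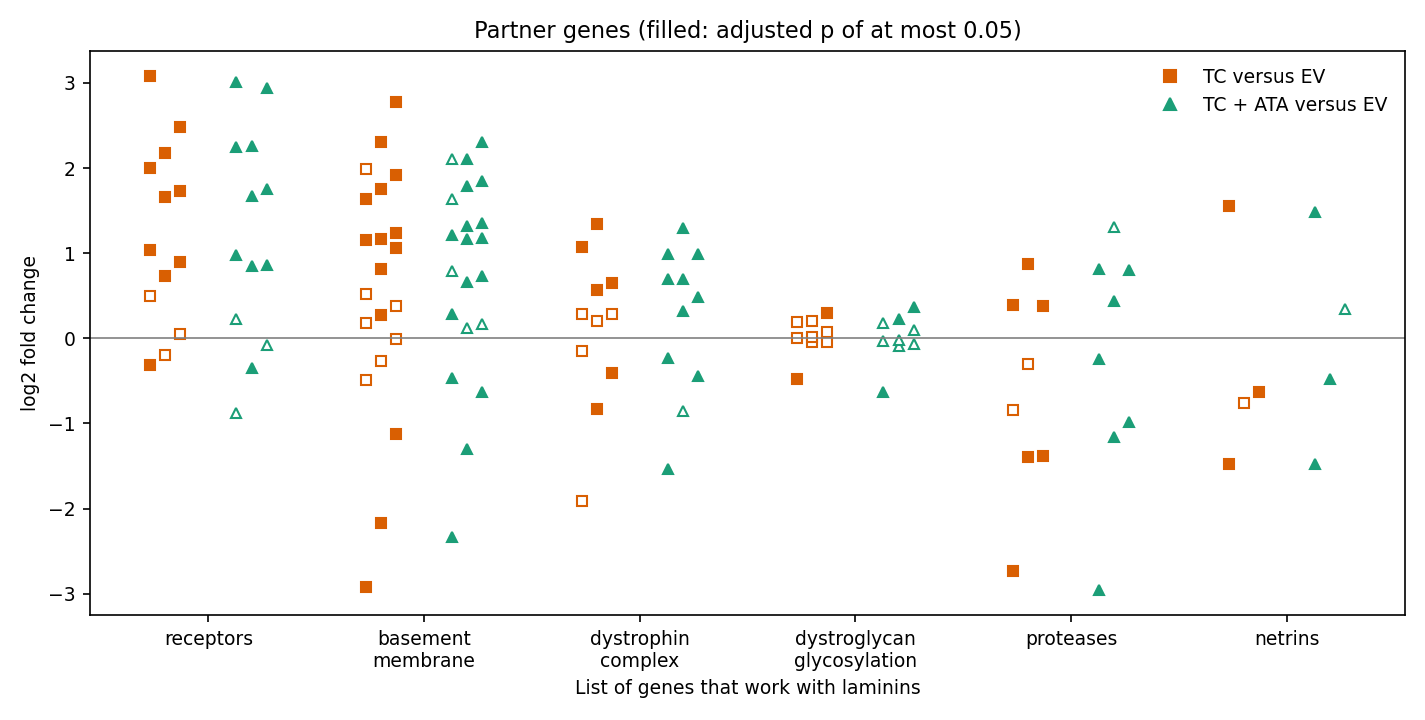
Each point is 1 tested partner gene, placed by its list and by its log2 fold change in TC versus EV (squares) or TC + ATA versus EV (triangles), with filled points at an adjusted p of at most 0.05. Mmp3, with 0 counts in both EV libraries, is not drawn, and of the 13 receptors 9 are filled above 0 and 1 below 0 in each comparison.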

How the data were processed

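The RNA-Seq data comprised 2 EV, 1 TC and 3 TC + ATA libraries (6 in all), grouped by the sample labels. The authors selected poly(A) RNA, aligned paired-end reads to GRCm38.p6 (mm10) with HISAT2 2.2.1 and deposited raw counts per gene from featureCounts, without normalization. The annotation release and the use of strand are not given in the sources used here, and reads of genes with near-identical copies may have been lost or shared. Symbols, positions and exon lengths came from GENCODE M21 of the same build, which held 55141 of the 55401 identifiers, and promoters from RefSeq.

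From the counts, edgeR 4.0.16 in R 4.3.3 (TMM, filterByExpr, glmQLFit and glmQLFTest) was fitted to all 6 libraries, with 3 residual degrees of freedom, Benjamini-Hochberg adjustment over all genes tested and a limit of 0.05. A log2 fold change of 2 was the second limit, as in the methods of the study. Standard errors were derived from the F statistic. CPM per kilobase used the union of exons. Counting error is small at this depth except for genes with few counts, and precision is limited by how few libraries there are. The steps were tested on simulated data. No pair of libraries agreed within sampling noise.

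The laminin genes, partner lists and tests were chosen with earlier results of these data known. Named are the 9 chains and Lamc3, and of each partner list and comparison up to 3 called genes in each direction with the largest fold changes and a mean of at least 1 CPM. Some genes are not reported here and are left out of the lists and their counts. The alternatives were DESeq2 1.42.0, other scalings, filters, lengths and prior counts, a replicate block, the fit of 2 groups alone and each library left out in turn.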

Additional observations from a re-analysis of the deposited data

How the results depend on the processing

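In both comparisons with EV, the counts of laminin chains called higher and lower kept within 1.5 times of their values under every alternative except the added fold change limit, with which 2 chains were higher and 1 was lower in each. In TC + ATA versus TC, where no chain was called, 1 was lower in DESeq2, 1 was higher and 1 was lower in the fit of the 2 groups alone, and leaving out libraries gave 0 to 1 in each direction. Partner genes called there numbered 5 higher in DESeq2, 5 with no filter on low counts, and 12 higher and 2 lower in the fit of the 2 groups alone. Leaving out libraries gave 0 to 11 higher, with 10 without EV replicate 1 and 11 without EV replicate 2, and 0 to 3 lower. The EV libraries differed from each other by a chi-square of 46.2 per degree of freedom, and pairs of TC + ATA libraries by 4.85 to 5.41. A lone EV or TC library is assumed to vary like the other groups.

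Directions turned only for estimates near 0 or from few counts that were not called. The log2 fold change of Lama3 was −0.28 with the replicate block in TC + ATA versus EV, −0.26 to 0.87 without a library there, and −0.83 to 0.28 in TC + ATA versus TC. Without a library, the estimate for Lamb3 in TC + ATA versus TC was −0.016 to 0.28, and that for Lamb2 in TC versus EV was −0.055 to 0.35. The cause was not tested.

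Replicate numbers 1 and 2 occur in EV as well as in TC + ATA, and the deviations of same-numbered libraries correlated at −0.0296 and −0.148. No pairing by number was seen, but with 2 EV libraries these values are not independent and cannot exclude it. With the replicate block no call of a laminin chain changed, and partner genes called in TC versus EV numbered 20 higher and 8 lower. Scaling by library size moved the median of all genes in TC versus EV from −0.03 to −0.13 and the calls from 2735 higher and 2456 lower to 2072 and 3159, and the chains called stayed at 4 higher and 2 lower. Calls over all genes in TC + ATA versus TC numbered 79 higher and 29 lower in the fit of all libraries, 236 and 84 in DESeq2, 795 and 633 in the fit of the 2 groups alone, and 32 and 8 with the replicate block. In the other 2 comparisons the block gave 1717 and 1467 calls, and 2450 and 2195. The lengths used for the summed levels were changed after the data were seen. The lower prior count planned is the default of edgeR, so that a prior count of 2 alone was tried.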

Other observations

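Likeness of pattern was measured for the α, β and γ chain with the highest mean CPM per kilobase of exon over all 6 libraries (Lama5, Lamb1 and Lamc1, although Lama5 was below Lama2 and Lama4 in EV) as the root mean square difference of centred log2 CPM over the 6 libraries, among 10423 genes with a mean of at least 5 CPM. The genes nearest to Lama5 were Tnfrsf23 (0.0602) and Nbl1 (0.0790). Those nearest to Lamb1 were Rars (0.0324), the arginyl-tRNA synthetase, and Slc7a5 (0.0353), an amino acid transporter. Those nearest to Lamc1 were Slc48a1 (0.0313), a heme transporter, and Sparc (0.0392), a matricellular protein of basement membranes that binds collagen. These values describe 6 libraries in 3 groups, and many genes that differ between EV and TC-expressing libraries come close to each other on this measure.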
